A study of Mus musculus with 4 samples.

Results

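The contacts of Leaf, an enhancer that lies in the intergenic stretch upstream of *Lef1*, were read along chromosome 3 from the whisker pad and from the adult kidney. The fragments described are those on chromosome 3 that carried a score in both Leaf viewpoint libraries, placed by the distance of their midpoint from the viewpoint. They were 137320 of the 2350935 fragments of the genome that had a score from Leaf, and the libraries were 2 of the 4 in the series, the other 2 having the *Lef1* promoter as viewpoint. Both tissues came from OF1 mice. The first library was made from whole whisker pads of embryos at E12.5, with 120 pads pooled per condition, and the second from whole adult kidney, which served in the study as the negative control tissue for *Lef1*. Each tissue was digested to single cells before crosslinked chromatin was cut, so that every score is an average over the mixed cell types of the organ. There was 1 library per tissue and no replicate, so that no difference given here could be set against the spread between animals, and no p-value is given.

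In 4C-Seq, chromatin is crosslinked, cut and re-ligated, and all the fragments joined to 1 chosen fragment, the viewpoint, are amplified and sequenced. A high score therefore marks a fragment that was often close to the viewpoint in the nucleus, and scores fall with distance along the chromosome. Enhancers act on promoters that can lie far away on the same chromosome, often within the same topologically associating domain, a stretch in which contacts are frequent. *Lef1* encodes an HMG-box transcription factor that acts with beta-catenin downstream of Wnt signalling and is required for whisker and hair follicle development.

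The sequences below are given because the profile is read through them, as each is a place where the primary cutter NlaIII (CATG) cut the chromatin or the secondary cutter DpnII (GATC) trimmed the ligation products. They are from the plus strand of the GRCm38 reference, with these sites in capitals. The first is the end of the viewpoint fragment itself, which spans 685 bases from 131019081 to 131019765, holds 1 DpnII site and ends 90706 bp before the start of *Lef1*. The others are the ends, or the whole, of the fragments that lead the results.
Leaf viewpoint fragment, last bases and the NlaIII site at which it was joined to its partners, chr3:131019616-131019769: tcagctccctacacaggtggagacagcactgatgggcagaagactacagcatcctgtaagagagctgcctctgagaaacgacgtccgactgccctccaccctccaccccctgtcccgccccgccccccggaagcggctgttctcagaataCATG
Fragment with the highest score in both libraries, chr3:131014312-131014470: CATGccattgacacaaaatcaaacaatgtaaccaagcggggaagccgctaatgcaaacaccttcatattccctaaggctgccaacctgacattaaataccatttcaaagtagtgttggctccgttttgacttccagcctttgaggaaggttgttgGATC
Fragment with the highest telomeric score in whisker pad, chr3:131024242-131024449: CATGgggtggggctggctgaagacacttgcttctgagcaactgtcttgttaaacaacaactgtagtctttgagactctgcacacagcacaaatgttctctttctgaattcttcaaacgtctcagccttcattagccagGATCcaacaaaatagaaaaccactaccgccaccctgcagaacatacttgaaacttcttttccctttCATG
Fragment with the highest whisker pad score beyond 80 kb, chr3:131105763-131105916: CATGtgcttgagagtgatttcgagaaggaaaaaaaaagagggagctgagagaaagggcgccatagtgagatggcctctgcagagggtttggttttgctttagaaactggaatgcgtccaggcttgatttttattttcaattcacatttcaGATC
Fragment with the highest whisker pad score among those at 0 in kidney, chr3:130876154-130876280: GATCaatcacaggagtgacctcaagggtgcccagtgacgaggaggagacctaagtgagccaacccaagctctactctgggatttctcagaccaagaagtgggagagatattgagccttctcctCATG

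All 137330 fragments of chromosome 3 in the table were flanked by CATG on both sides, and 98.3% held a GATC. Within 1 Mb of Leaf there were 1992 scored fragments with a median length of 312 bases. The 10 fragments around the viewpoint, from 131015897 to 131022898, carried no score. The nearest fragments with a score therefore lay 4980 bp away on the centromeric side (lower coordinates, away from *Lef1*) and 4321 bp away on the telomeric side (higher coordinates, toward *Lef1*). Scores are not whole reads and the depth of either library is unknown. The raw scores summed to 837132 in whisker pad against 787783 in kidney. The commonest low score was 0.53 in whisker pad, at 229 fragments, and 0.13 in kidney, at 477 fragments. Of all scores above 0 in the genome, 6.13% were under 1 in whisker pad against 18.6% in kidney, so that the libraries differed in the grain of their lowest values.

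A larger share of the score lay on the chromosome of Leaf in the whisker pad library than in the kidney library. Chromosome 3 held 27.5% of the summed score of the genome in whisker pad against 12.2% in kidney. The fragments above 0 on chromosome 3 were 2363 (1.72%) in whisker pad and 1281 (0.933%) in kidney. On the other autosomes, 0.480% of fragments were above 0 in whisker pad (95% Wilson interval 0.471% to 0.489%) and 0.529% in kidney (0.519% to 0.538%). On chromosome 3 more than 20000 kb from Leaf the shares were 0.813% and 0.692%, nearer to that of the other autosomes in kidney. The kidney library thus had fewer fragments above 0 on the viewpoint's chromosome and not fewer on the others. These intervals, and those given below, cover the counting of fragments only, and neighbouring fragments are not independent.

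The score on chromosome 3 also lay closer to Leaf in the whisker pad library. Within 350 kb, 762 fragments held 49.96% of the chromosome 3 score in whisker pad against 28.3% in kidney. Within 1 Mb the shares were 56.2% and 34.2%, and within 50 kb they were 20.1% and 15.01%. Leaving out all fragments within 20 kb, the share within 350 kb was 42.1% in whisker pad against 19.8% in kidney. The radius that held 25% of the score was 71.0 kb in whisker pad and 165 kb in kidney. For 50% of the score it was 354 kb in whisker pad and 15723 kb in kidney. When fragments above 0 were counted instead of summing their scores, 22.6% of those on chromosome 3 lay within 350 kb in whisker pad against 17.2% in kidney, a smaller difference in the same direction. None of these shares depends on how the libraries are scaled to each other. Each of them, and each radius, counts the scores far from Leaf in its total.

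**Figure D1:**
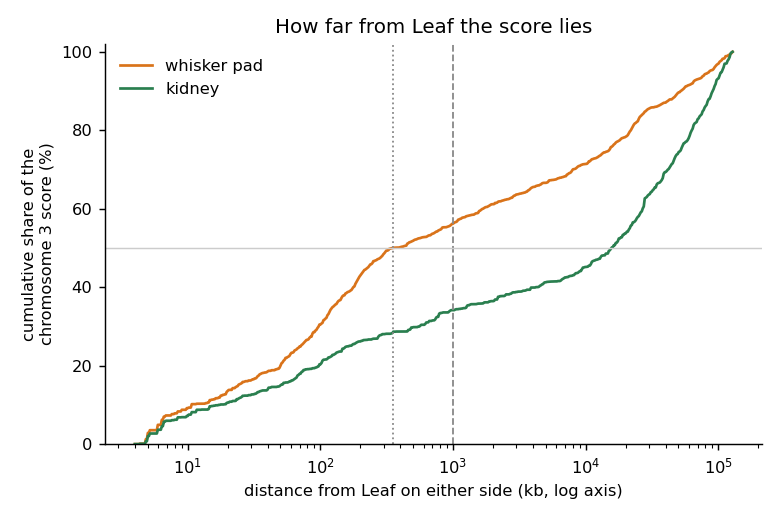
Cumulative share of the chromosome 3 raw score (percent) against the distance from Leaf on either side (kb, log axis), with 1 line for each library, a dotted line at 350 kb, a dashed line at 1000 kb and a grey line at 50%. The whisker pad line reached 50% at 354 kb and the kidney line at 15723 kb.

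The difference was large in the share of fragments that were contacted at all. Within 350 kb, 534 fragments (70.1%, Wilson interval 66.7% to 73.2%) were above 0 in whisker pad and 220 (28.9%, 25.8% to 32.2%) in kidney. Within 1 Mb the counts were 739 (37.1%) and 278 (13.96%) of 1992. The kidney fragments were largely nested in those of whisker pad near Leaf. Within 350 kb, 198 fragments were above 0 in both libraries, which is 90.0% of the kidney fragments and 37.1% of the whisker pad fragments. A further 336 were above 0 only in whisker pad, 22 only in kidney and 206 in neither. Between 1 and 5 Mb the libraries shared 7 fragments, out of 372 for whisker pad, 110 for kidney and 7614 scored in all. Beyond 5 Mb they shared 15, out of 1252, 893 and 127714. Most fragments so far out had a score of 0 in both libraries. How many would be shared at random was not computed, so that these small counts are no contrast to the nesting near Leaf.

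Long fragments were above 0 more often than short ones in both libraries. Within 350 kb, 52.7% of the fragments up to 200 bases were above 0 in whisker pad against 14.1% in kidney. Among fragments over 800 bases the shares were 89.7% and 47.1%. Whisker pad was ahead in each of the 4 length classes, with 71.6% against 27.1% at 200 to 400 bases and 77.5% against 37.5% at 400 to 800 bases. The part of sequencing depth in the share of fragments above 0 was not tested, as no file used here gives the reads.

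For comparisons of the level at a distance or a gene, each raw score was set relative to the average over the 1992 fragments within 1 Mb of Leaf, as the methods of the study describe. That average was 65.0 in whisker pad against 16.5 in kidney, and the result is called the normalized score. The choice matters, because any other scale shifts every log2 ratio of whisker pad over kidney by the same amount. The shift was 0.72 when libraries were scaled to all of chromosome 3, 1.54 when scaled to the median fragment above 0 and 1.89 when scaled to the whole genome. All of these shifts are upward, so that an order with whisker pad ahead cannot turn under them, and only one with kidney ahead can. All normalized scores below are read with that in mind, and the direction is said to turn wherever another of these scales turned it.

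Close to Leaf the normalized profiles of the 2 tissues ran together, and they parted between 80 and 320 kb. At 10 to 20 kb the mean normalized score was 7.77 in whisker pad against 9.97 in kidney, and at 40 to 80 kb it was 3.45 and 3.67, differences that turned toward whisker pad under each of the other 3 scales. At 80 to 160 kb it was 2.15 in whisker pad against 1.696 in kidney. At 160 to 320 kb it was 1.12 and 0.554, a 2.01-fold difference. In both of these stretches whisker pad was ahead, a lead that the other scales can only raise. From 320 to 640 kb the means were low in both, at 0.216 and 0.284, and the order turned toward whisker pad under the other 3 scales. The fragments above 0 took another course, as the tissues stood apart already at 20 to 40 kb, with 92.5% in whisker pad against 62.5% in kidney at 20 to 40 kb. At 160 to 320 kb the shares were 62.3% (57.0% to 67.3%) and 15.7% (12.2% to 19.997%), and at 320 to 640 kb they were 21.3% and 5.41%.

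**Figure D2:**
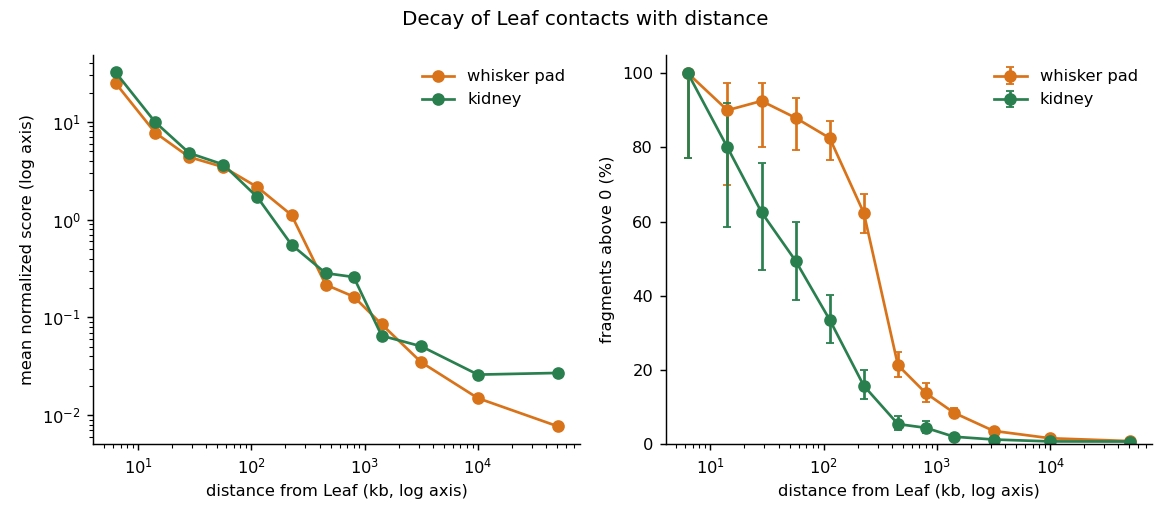
Left, mean normalized score per distance bin against the distance from Leaf, both axes logarithmic and both sides of Leaf together. Right, share of fragments above 0 (percent) in the same bins with 95% Wilson intervals as bars, 1 line for each library. On this scale, within 1 Mb, the whisker pad mean was the higher one in the bins from 80 to 320 kb, and in the other bins the order turned under other scales, whereas its share of fragments above 0 was at or above that of kidney in every bin plotted.

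A measure that needs no scale gave the same picture of the shape. In whisker pad the mean raw score at 160 to 320 kb was 25.9% of that at 10 to 80 kb, and in kidney it was 11.4%, a log2 ratio of 1.18. On the centromeric side the values were 26.1% and 16.0%. On the telomeric side, which holds *Lef1* and *Hadh*, they were 26.0% and 6.48%, a log2 ratio of 2.01. By this measure the whisker pad profile fell alike on the 2 sides, whereas the kidney profile fell further on the telomeric side. These 2 stretches were chosen after the decay curves had been seen.

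A single power law hid the difference. Between 10 kb and 1 Mb the mean score fell with distance to the power -0.94 in whisker pad against -0.97 in kidney. Over 10 to 80 kb the exponents were -0.59 and -0.75, and over 80 kb to 1 Mb they were -1.45 and -1.05. The sides differed near Leaf. Over 10 to 80 kb the exponents were -0.73 in whisker pad against -0.53 in kidney on the centromeric side, and -0.15 against -0.89 on the telomeric side, so that the order was not the same on both sides. Over 80 kb to 1 Mb they were -1.42 and -1.14 on the centromeric side and -1.51 and -1.09 on the telomeric side, steeper in whisker pad on each. On the telomeric side a stretch of 90.9 kb, from 131373450 to 131464394, held no scored fragment, as 98.9% of its reference bases are unknown. It lies 354 to 445 kb from Leaf and so outside the 350 kb radius.

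The 2 sides of Leaf shared the score in nearly the same way in both tissues. Within 350 kb the centromeric side held 58.3% of the score in whisker pad against 57.8% in kidney, from 371 of the 762 fragments. Within 1 Mb it held 58.3% and 55.1%, from 1056 of 1992 fragments. Counting fragments above 0 within 350 kb gave 51.3% and 52.7%, closer to an even split. Close to Leaf the sides stood apart in whisker pad, where the mean normalized score at 10 to 20 kb was 12.0 on the centromeric and 4.93 on the telomeric side. In kidney these means were 11.9 and 8.68. Among the bins of each side within 1 Mb, the largest ratio between the tissues was on the telomeric side at 160 to 320 kb, with 0.932 in whisker pad against 0.283 in kidney and with 55.9% and 11.2% of 179 fragments above 0. On the centromeric side at the same distance the means were 1.32 and 0.862, with 69.62% and 20.9% of 158 fragments above 0. Whisker pad was ahead in both, a lead that the other scales can only raise.

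**Figure D3:**
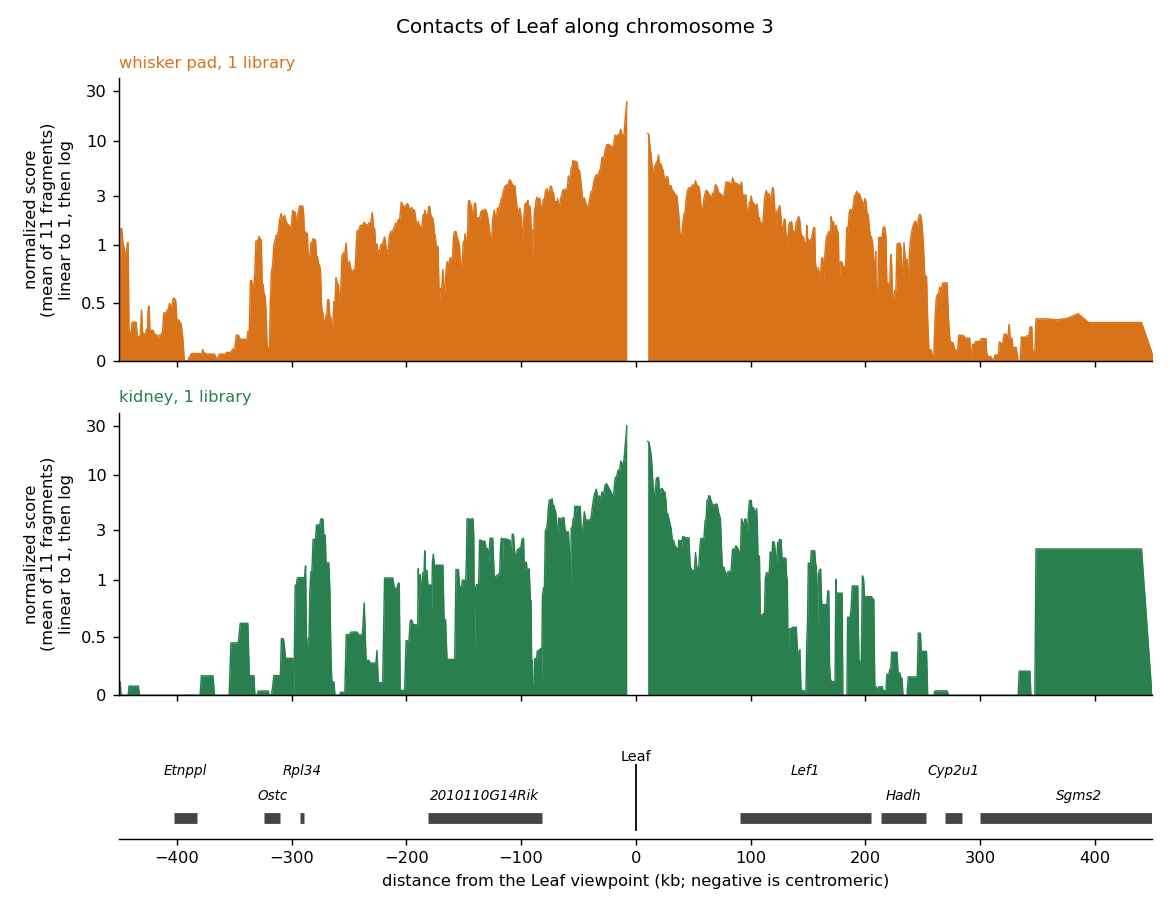
Running mean of the normalized score over 11 fragments against the distance from Leaf (kb, negative is centromeric) in whisker pad (top) and kidney (middle), with 1 library each, an axis that is linear up to 1 and logarithmic above, and gene positions at the bottom. The whisker pad profile is nearly unbroken from about -350 kb to the end of *Hadh*, whereas the kidney profile is broken into blocks that each rest on few fragments. The flat blocks between 350 and 450 kb are windows that span the stretch without scored fragments.

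The highest window of 11 fragments was the same in both tissues. It lay at 131008664 to 131014804, 7.92 kb centromeric of Leaf, with a mean normalized score of 23.9 in whisker pad against 29.9 in kidney. It holds the highest single fragment of each library, the second sequence above (131014316 to 131014804), with raw scores of 3667 and 1279. The next window was also shared. It lay 10.3 kb telomeric, over the unclassified transcript model *A430072C10Rik*, with 11.8 and 21.1, and the third sequence above lies in it, with raw scores of 2644 and 611. The order of the first window turned toward whisker pad under each of the other 3 scales, and that of the second when libraries were scaled to the median fragment above 0 or to the whole genome.

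Of the 20 highest non-overlapping windows within 1 Mb, 11 were centromeric in whisker pad against 12 in kidney. In whisker pad the 20 had means from 2.60 to 23.9, the farthest lay 204 kb from Leaf, and 15 overlapped 1 of the kidney windows. In kidney the means ran from 2.33 to 29.9, the farthest lay 733 kb away, and 16 overlapped 1 of the whisker pad windows. After each score was divided by a line of slope -1 for distance, 5 of the 20 whisker pad windows overlapped a kidney window. That line corrects for distance only roughly, as the whisker pad exponent was -0.59 over 10 to 80 kb and -1.45 over 80 kb to 1 Mb. How many windows placed at random would overlap was not computed for any of these counts. A single fragment carried more than 50% of the score in 0 of the whisker pad windows and in 5 of the kidney windows. Of the whisker pad windows 4 overlapped *Lef1*, 1 of them only at its first bases, and of the kidney windows 2 did, and within the long non-coding RNA gene *2010110G14Rik* lay 4 of each.

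The 5 whisker pad windows without a kidney counterpart lay at the start of *Lef1*, in its 3' part, in *2010110G14Rik* and centromeric of it. The window at 131095638 to 131111672, which reaches over the first bases of *Lef1* and the antisense gene *Gm43352*, had a mean normalized score of 4.43 in whisker pad against 1.97 in kidney, with 10 and 8 of its 11 fragments above 0. The window at 131206043 to 131216560, toward the end of *Lef1*, had 3.30 and 0.944, with 9 and 3 fragments above 0. These windows were taken for being high in whisker pad and absent from the kidney list, so that the order of the tissues in them is a description. In *2010110G14Rik*, 130930672 to 130937273 had 2.90 and 0.382, and 130922425 to 130928954 had 2.70 and 1.24. The farthest, 130809906 to 130820091 at 204 kb on the centromeric side, had 2.60 in whisker pad, with 10 of 11 fragments above 0, and 0.0412 in kidney, with 1 above 0. All 5 were higher in whisker pad under the 4 scales, since the other scales raise the ratio.

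The kidney windows without a whisker pad counterpart were 4, and 3 of them lay beyond 200 kb. The window at 130741451 to 130747900, in the long non-coding RNA gene *Gm42997*, had 0.510 in whisker pad against 3.86 in kidney, with 4 and 5 fragments above 0. The window at 131745715 to 131756043, 733 kb telomeric, had 0.303 and 3.76, and 1 fragment carried 61.8% of its kidney score. The window at 130532662 to 130539804 in *Col25a1* had 0.360 and 2.35, and 1 fragment carried 95.3% of its kidney score. The last, 130880102 to 130893092 in *2010110G14Rik*, had 2.17 and 2.33, so that it was nearly as high in whisker pad, and its order turned under the other 3 scales. The first 3 were higher in kidney under all 4 scales. These windows were taken for being high in kidney and absent from the whisker pad list. The order of the tissues in them is therefore a description.

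To compare the tissues window by window, the fragments within 1 Mb were tiled outward from Leaf into 181 windows of 11, and the 62 whose larger mean was at least 1 were kept. Of these, 17 (27.4%) were at least 2-fold higher in whisker pad and 16 (25.8%) at least 2-fold higher in kidney, on the log2 scale with a pseudocount of 0.01. The split between the tissues depended on the scale. It was 27 to 12 when libraries were scaled to all of chromosome 3, 42 to 10 when scaled to the median fragment above 0 and 45 to 8 when scaled to the whole genome. When the share of fragments above 0, relative to its own mean within 1 Mb, was compared instead of the score, it was 6 to 14. Of all 181 windows, with no minimum mean, 94 (51.9%) were higher in whisker pad and 26 (14.4%) in kidney.

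By distance, the windows that could be compared changed, because the minimum mean chose them. Within 80 kb all 14 windows reached the minimum in both libraries, and 1 was 2-fold higher in whisker pad against 0 in kidney, with a median log2 ratio of -0.28. At 80 to 160 kb, 18 of 19 windows were kept, 13 of them through both libraries and 5 through whisker pad alone. Of these, 6 were higher in whisker pad against 1 in kidney. At 160 to 320 kb, 17 of 30 windows were kept, of which 2 reached the minimum in both libraries, 13 in whisker pad alone and 2 in kidney alone. The split of 10 to 2 among them was therefore partly fixed by the minimum. Beyond 320 kb all 13 windows kept, of 118, reached the minimum in kidney alone, and all 13 were higher in kidney for the same reason. With no minimum, 21 of the 30 windows at 160 to 320 kb were 2-fold higher in whisker pad against 2 in kidney, and beyond 320 kb 66 of 118 against 23. Many of the 66 were at 0 in kidney, so that the pseudocount set their ratio. They do not show a higher level, as the mean normalized score at 320 to 640 kb was 0.216 in whisker pad against 0.284 in kidney.

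**Figure D4:**
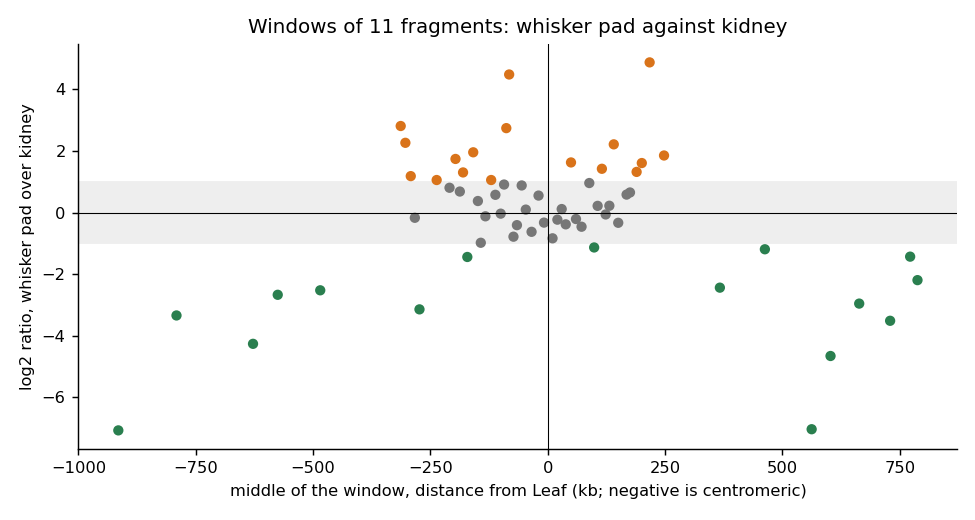
Log2 ratio of the mean normalized score, whisker pad over kidney, for the 62 tiled windows of 11 fragments whose larger mean is at least 1, against the distance of their middle from Leaf (kb, negative is centromeric). Orange points are at least 2-fold higher in whisker pad, green points at least 2-fold higher in kidney, and grey points in the shaded band are neither. The orange points lie within 320 kb of Leaf, and the points beyond 320 kb are all green on this scale.

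Among the windows kept by the minimum mean, the highest ratio was 4.87 on the log2 scale, at 131233131 to 131240083 in *Hadh*. This gene encodes a mitochondrial dehydrogenase of fatty acid beta-oxidation. The mean normalized score of the window was 1.43 in whisker pad, with 8 of 11 fragments above 0, and 0.0391 in kidney, with 2. The next was 4.48 at 130933461 to 130941541, at the telomeric edge of *2010110G14Rik*, with 2.19 and 0.0886. The window at 130699672 to 130711059 over *Ostc*, a subunit gene of the oligosaccharyltransferase complex, followed with 2.81, from means of 1.25 and 0.170. The window at 130929572 to 130933456 in *2010110G14Rik* had 2.74, and that at 130711370 to 130721056 between *Ostc* and *Rpl34* had 2.26. All 5 had at least 7 fragments above 0 in whisker pad and at most 3 in kidney. They were taken for their ratio, and each reached the minimum mean through whisker pad alone. These counts are therefore a description. At the other end, 130099162 to 130112570 and 131578739 to 131585408, the latter in *Papss1*, were at 0 in whisker pad and had 1 fragment above 0 in kidney. The ratio there is set by the pseudocount and is not given as a fold.

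Of the 145 fragments that overlap *Lef1* (131110471 to 131224356, plus strand), 121 (83.4%) were above 0 in whisker pad against 44 (30.3%) in kidney. Of all 200 fragments 80 to 160 kb from Leaf on both sides, 82.5% and 33.5% were above 0, near the shares at *Lef1*. Of the 96 telomeric ones alone, 87.5% and 40.6% were above 0. Of the 179 telomeric fragments at 160 to 320 kb, where the rest of the gene lies, 55.9% and 11.2% were above 0. The shares of *Lef1* thus lay between those of the 2 telomeric stretches that it spans. The mean raw score was 120 in whisker pad against 23.7 in kidney, and the mean normalized score was 1.85 and 1.43, a log2 ratio of 0.36. The log2 ratio was 1.09 when scaled to all of chromosome 3, 1.89 when scaled to the median fragment above 0 and 2.25 when scaled to the whole genome. The gene lies mostly 80 to 160 kb from Leaf, and its mean was 0.858 times that of all fragments at that distance in whisker pad and 0.844 times in kidney. By that measure, which needs no scale and was chosen after the values had been seen, the level of *Lef1* as a whole relative to its distance was close in the 2 libraries. The fragments at that distance include those of *Lef1* itself, and part of the gene lies farther than 160 kb.

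At the start of *Lef1* the levels stood further apart. The 9 fragments within 5 kb of the start had a mean normalized score of 4.10 in whisker pad, with 8 above 0, and 2.01 in kidney, with 7 above 0, a log2 ratio of 1.03. This was 1.91 times the mean of all fragments at 80 to 160 kb in whisker pad and 1.18 times in kidney. The fourth sequence above belongs to this stretch. That fragment (131105767 to 131106588) ends 3883 bp before the start of *Lef1*, and its raw score was 870 in whisker pad, the highest of that library beyond 80 kb, and 70.3 in kidney. Without the highest fragment of each library, a choice made after the values had been seen, the means were 2.94 and 1.21. When fragments above 0 were counted, the difference was small, at 8 and 7 of 9. Seen from the other end, the *Lef1* promoter viewpoint gave the 13 fragments within 5 kb of the Leaf viewpoint a mean normalized score of 2.95 in whisker pad against 1.48 in kidney, with 13 and 12 above 0.

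Beyond *Lef1*, the shares of fragments above 0 are to be read against those of all fragments at that distance, which were 62.3% in whisker pad against 15.7% in kidney at 160 to 320 kb and 21.3% and 5.41% at 320 to 640 kb. *Hadh* (131233419 to 131272101) had 30 of 46 fragments (65.2%) above 0 in whisker pad against 7 (15.2%) in kidney. Its mean normalized scores were 1.12 and 0.226. The shares were near those of its distance on both sides together. They were above the 55.9% and 11.2% of telomeric fragments at 160 to 320 kb. *Cyp2u1*, which encodes a cytochrome P450, had 5 of 13 fragments above 0 and a mean of 0.134 in whisker pad, and all 13 were at 0 in kidney. *Sgms2*, which encodes a sphingomyelin synthase, had 24 of 93 fragments (25.8%) above 0 in whisker pad against 3 (3.23%) in kidney. Its mean was nonetheless 0.244 in whisker pad against 0.493 in kidney, an order that turned when libraries were scaled to the median fragment above 0 or to the whole genome. *Papss1*, whose enzyme makes the sulfate donor PAPS, had 12 of 85 fragments (14.1%) above 0 in whisker pad against 3 (3.53%) in kidney, with means of 0.0930 and 0.361 that kept their order under all 4 scales. In these last genes the kidney mean rested on 3 fragments each.

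On the centromeric side, *2010110G14Rik* (130838455 to 130937337, minus strand), a long non-coding RNA gene of no known function, had 92 of 121 fragments (76.0%) above 0 in whisker pad against 30 (24.8%) in kidney, near the 77.9% and 26.9% of all centromeric fragments at 80 to 160 kb. Its mean normalized score was 1.94 and 1.46, and whisker pad was higher under all 4 scales. The TRACER insertion, a lacZ reporter transgene known from an expression database, lies inside this gene. Its 22 flanking fragments within 5 kb had means of 1.93 and 0.673, with 18 and 6 above 0, which was 0.898 and 0.397 times the mean at 80 to 160 kb. The fifth sequence above, from 130875751 to 130876276, lies in *2010110G14Rik* and had a raw score of 814 in whisker pad against 0 in kidney. Between *2010110G14Rik* and Leaf, 77 of 83 fragments were above 0 in whisker pad against 52 in kidney, with means of 7.17 and 7.83. Between Leaf and *Lef1*, 76 and 50 of 85 were above 0, with means of 4.66 and 5.68. In both stretches the order of the means turned under the other 3 scales.

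*Rpl34*, a ribosomal protein gene, had 4 of 4 fragments above 0 in whisker pad against 2 in kidney, with means of 1.72 and 2.85. That order turned when libraries were scaled to the median fragment above 0 or to the whole genome. The higher of the 2 kidney fragments had a raw score of 173. The 12 fragments within 5 kb of the start of *Rpl34* went the other way. Their means were 1.80 in whisker pad and 0.955 in kidney, with whisker pad ahead under all 4 scales. The genes centromeric of *Rpl34* had lower means. *Ostc* had 6 and 3 of 15 fragments above 0, with means of 0.693 and 0.0829. *Etnppl*, which encodes ethanolamine-phosphate phospho-lyase, had 7 and 1 of 24 above 0, with means of 0.176 and 0.000630. *Col25a1*, which encodes a membrane collagen, had 100 and 29 of 516 above 0 (19.4% and 5.62%). Its means were 0.193 and 0.210, an order that turned under the other 3 scales. *Sec24b*, a COPII coat gene near the edge of the 1 Mb, had 7 and 1 of 43 above 0 (16.3% and 2.33%). Of all fragments at 320 to 640 kb, 21.3% and 5.41% were above 0. At 640 to 1000 kb it was 13.7% and 4.38%, so that both genes were near the shares at their distance. The 13 fragments within 5 kb of the start of *Sec24b* had means of 0.310 in whisker pad against 0.586 in kidney. Scaling to the median fragment above 0 or to the whole genome turned that order. Of the 11 genes plotted, the share of fragments above 0 was higher in whisker pad in each one, whereas the mean normalized score was higher in kidney at *Col25a1*, *Rpl34*, *Sgms2* and *Papss1*.

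**Figure D5:**
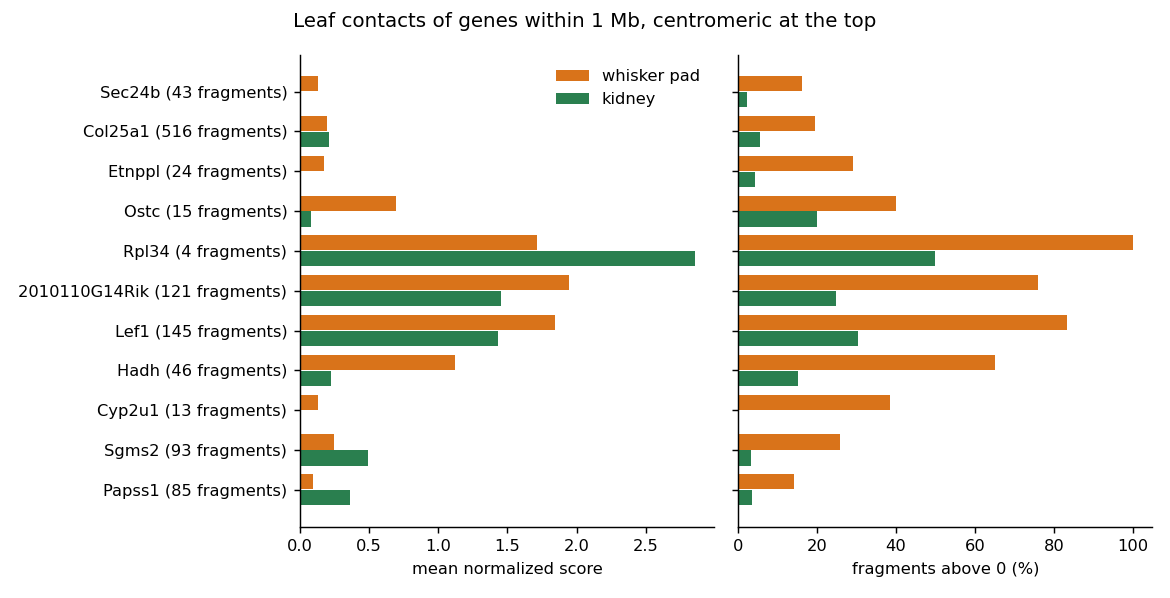
Mean normalized score (left) and share of fragments above 0 in percent (right) for *2010110G14Rik* and the protein-coding genes that overlap 1 Mb on either side of Leaf, ordered from centromeric (top) to telomeric, with 1 bar for each library and the number of fragments beside each name. *Lef1* and *2010110G14Rik* had the longest bars in whisker pad on the right after *Rpl34*, which holds 4 fragments.

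Fragment by fragment within 1 Mb, 571 of 1992 (28.7%) were at least 2-fold higher in whisker pad and 141 (7.08%) in kidney on the normalized scale with the pseudocount. With no minimum fold, 609 (30.6%) had the higher normalized score in whisker pad and 197 (9.89%) in kidney. Of the 609, 528 were at 0 in kidney, and of the 197, 67 were at 0 in whisker pad. No scale can turn the order of such fragments. Among the 211 fragments detected by both libraries, kidney more often had the higher normalized score. That order depended on the scale. On raw scores whisker pad was more often higher among the 211, with counts over all 1992 fragments of 698 and 108. Of the 20 highest fragments of each library on chromosome 3, 9 were shared. In whisker pad 14 of the 20 lay within 20 kb of Leaf and 0 beyond 1 Mb. In kidney 10 lay within 20 kb and 9 beyond 1 Mb, and all 9 were at 0 in whisker pad. The highest of them, at 158498149 to 158499485 and 27479 kb from Leaf, had a raw score of 677 in kidney. A score of 0 is the usual one so far out. Only 8.45% of all fragments at 1000 to 2000 kb and 0.813% beyond 20000 kb were above 0 in whisker pad. The 10 highest fragments held 9.48% of the chromosome 3 score in whisker pad against 8.26% in kidney, and the 100 highest held 29.1% and 37.8%.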

How the data were processed

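The series holds 4C-Seq libraries of 2 tissues and 2 viewpoints, and the 2 Leaf viewpoint libraries were analysed here. The authors cut chromatin with NlaIII and DpnII, aligned reads to mm10 (GRCm38), with Bowtie2 named in the submitters' processing notes, and used the HTSstation pipeline. They deposited 1 raw and 1 smoothed signal, a score per NlaIII fragment that is never negative, and left fragments next to the viewpoint empty. The scaling of the raw signal is not given in the sources used here, so that the depth is unknown. Of the per-sample columns, the smoothed signals of the *Lef1* promoter libraries were not used.

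Each raw score was normalized to the average of scored fragments within 1 Mb. Shares, distance bins, least-squares decay exponents over 10 log bins and windows of 11 fragments were computed from them, with a pseudocount of 0.01 for log2 ratios and 95% Wilson intervals for shares of fragments. Window and decay steps were tested on simulated data. Genes came from GENCODE M21 and sequences from the GRCm38 reference. Named were *Lef1*, genes within 700 kb, the TRACER insertion, and the genes at the 10 highest windows of each library and at the 5 highest and 5 lowest window ratios. *Sec24b* was added after its values were seen. The regions, lists and distances were chosen with earlier results of these data known. Alternatives changed the scale, window size, pseudocount, score cap, fragments near Leaf, fragment length, distance range and side. The scripts ran on Python 3.11.15 with pandas 2.3.3, numpy 2.4.6, matplotlib 3.10.9 and scipy 1.17.1. The Mann-Whitney test across fragments in the study's methods was not run, as fragments of 1 library are not replicates. The sequence and scores of 1 further fragment are not reported here.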

Additional observations from a re-analysis of the deposited data

How the results depend on the processing

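Of 97 alternative values for 19 results, 72 moved by less than the interval or 1.5-fold limit set for them and 25 moved further. As labelled, 0 turned direction, but most results could hardly turn. Window counts and shares of fragments above 0 were judged by size alone, and a decay exponent could turn only by rising above 0. The distance bins and genes whose order turned under another scale are not among the 19 results. The limits are 1 library per tissue, an unknown depth and a scale that decides the level comparisons. The cis share, the shares within 350 kb and 1 Mb, the centromeric shares and the centromeric counts of the highest windows stayed within the limit under each alternative tried. The fragments above 0 within 350 kb became 50.8% in whisker pad against 18.5% in kidney when only scores of at least the median were counted, and 75.8% and 33.9% for fragments of 200 to 1000 bases. The whisker pad decay exponent became -0.42 when fragments above 0 were counted. With distance-corrected scores, 5 of the 20 highest whisker pad windows overlapped a kidney window. The 17 windows higher in whisker pad became 27, 42 and 45 when scaled to chromosome 3, the median fragment above 0 and the genome, 6 for fragments above 0 (with 14 higher in kidney), 8 of 31 with 21 fragments and 94 with no minimum. The 16 higher in kidney became 10 and 8 when scaled to the median and the genome, 5 with 21 fragments and 26 with no minimum. The *Lef1* gene ratio, 0.36 on the log2 scale, became 1.09, 1.89 and 2.25 under these 3 scales and 1.46 for fragments above 0. The ratio at the *Lef1* start, 1.03, became 1.75, 2.55 and 2.92 and, for fragments above 0, 0.19. The drop from 10 to 80 kb to 160 to 320 kb gave 2.01 on the telomeric side. That result and its alternatives, setting scores below 1 to 0 and leaving out the highest *Lef1* fragment were chosen after seeing the data. For the values that moved, the cause was not tested, except that scaling adds a constant by construction. No paired analysis was possible because each tissue has 1 library and the groups share only the number 1.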

Other observations

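On the X chromosome, 363 of 111588 fragments were above 0 from Leaf in whisker pad (0.325%, Wilson interval 0.294% to 0.360%) and 611 in kidney (0.548%, 0.506% to 0.593%). Over the 18 other autosomes the share ran from 0.450% to 0.532% in whisker pad and from 0.483% to 0.593% in kidney. The X chromosome thus lay below the range of the autosomes in whisker pad and within it in kidney. The number of X chromosomes per cell in the pools is not given in the labels, and its part in this value was not tested.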
